A study of Mus musculus with 23 samples.

Results

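LKS cells made from mouse ESCs in Static suspension culture were compared with native LKS cells of mouse bone marrow (BM), on 3 arrays each, or 6 of the 23 arrays of the series, over all 25697 probes. The Static group held R1 ESCs, a male mouse line that had been expanded on inactivated embryonic fibroblasts and then left to form embryoid bodies in ultra-low-attachment flasks. These cells were dissociated at day 7 and sorted for c-kit and Sca-1 without a lineage depletion. The BM group came from mice labelled 10 weeks old, bred from 129X1/SVJ and 129S1/SvImj parents so as to share the MHC background of the ESCs. Their marrow was depleted of cells carrying CD5, B220, CD11b, Gr-1, 7-4 or Ter-119 and then sorted for c-kit and Sca-1, so the preparations differed in more than their origin. The labels call the replicates biological but do not say whether they came from separate cultures or pooled animals, and the p-values measure only the spread between these arrays. The other arrays enter only some fits and level comparisons: 3 of undifferentiated ESCs at day 0, 3 of Spinner flask and 8 of Synthecon rotary vessel cells from the same ESC line at day 7, and 3 of LKS cells from fetal liver (FL) at embryonic day 15.

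The c-kit receptor binds stem cell factor, and Sca-1, encoded by Ly6a, is a lipid-anchored surface protein. In adult marrow their joint presence on cells without lineage antigens marks a small fraction that holds the hematopoietic stem cells (HSCs) and multipotent progenitors. During development blood appears in waves: the yolk sac first makes primitive red cells with embryonic globins and some early myeloid cells, and definitive progenitors arise later from hemogenic endothelium. Embryoid bodies form derivatives of all germ layers, and Sca-1 and c-kit are also carried by cells outside the blood lineage. The comparison asks how far cells that share these surface antigens share their transcripts.

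Values are normalized log2 intensities, in which a difference of 1 is a 2-fold change, and levels were compared between arrays for the same probe, never between genes. Every array ran from 4.90 or 4.93 to 15.09 with a median of 6.40. Between 10388 and 11102 probes stood above background (detection p under 0.01) on the Static arrays, and between 9846 and 10348 on the BM arrays. Pearson correlations over all probes were 0.940 to 0.968 between Static arrays, 0.962 to 0.989 between BM arrays and 0.824 to 0.888 between a Static and a BM array. Static replicate 1 stood apart: its mean correlation was 0.945 with the other Static arrays, 0.978 with Spinner flask cells and 0.964 with undifferentiated ESCs, and 120 genes lay over 2 log2 units below and 107 above both other Static arrays, against 12 and 11 genes for Static replicate 2 and 15 and 21 for Static replicate 3. BM replicate 1 had 63 genes over 2 log2 units below and 4 above the other BM arrays. Static replicates 1 and 2 and BM replicate 1 shared a slide, BM replicates 2 and 3 lay on another and Static replicate 3 on yet another, so slide and group were partly confounded. For Kit, no probe was found in the tables.

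Of 17973 genes, 1577 were called higher in Static cells (8.77%) and 1233 lower (6.86%), at a limma adjusted p under 0.05. Changes were large: 466 genes rose at least 5-fold (2.59%) and 302 fell at least 5-fold (1.68%), while the median difference of all genes was -0.02 on the log2 scale. Over the 25697 probes, 540 were called and at least 5-fold higher (2.1%) and 368 at least 5-fold lower (1.43%). Of all called probes 53.1% were higher in Static cells, and 41.1% were when the arrays were scaled to equal medians in place of quantile normalization. Of the genes called higher, 913 lay below background on all 3 BM arrays, and 614 of these were above background on all 3 Static arrays. Of the genes called lower, 454 lay below background on all 3 Static arrays, and 246 of these were above background on all BM arrays. For such genes the fold is a lower bound, written as "at least", in which each dim array takes the weakest signal that still counted as above background on it, or its own value where that is higher. Where 1 or 2 arrays of the dimmer group were above background, the fold is that of the measured values, rests partly on values at background, and the number of such arrays is given. In bulk RNA, fewer cells of a type and less RNA per cell cannot be told apart.

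**Figure D1:**
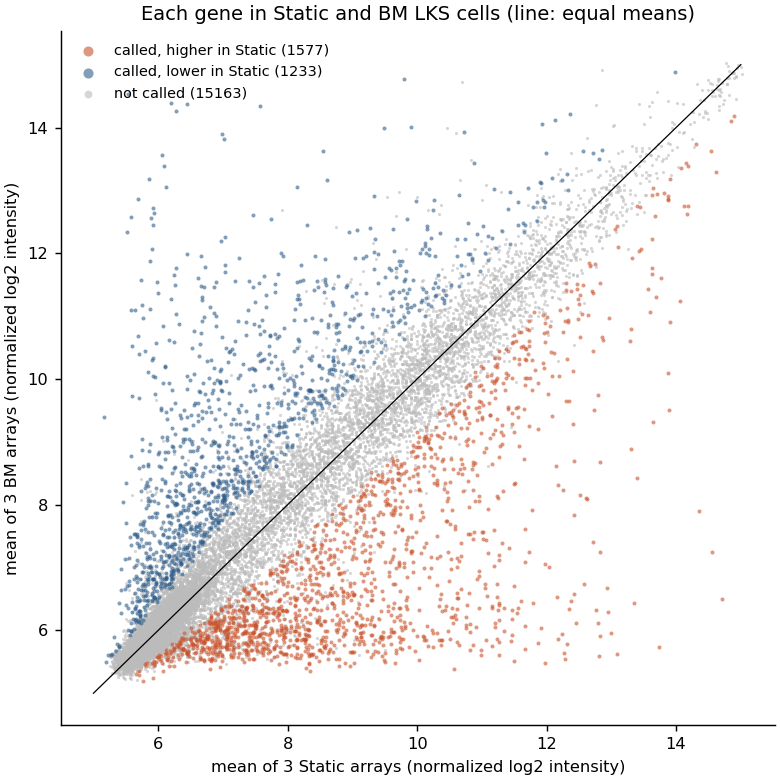
Mean normalized log2 intensity of each of 17973 genes over 3 Static arrays (x axis) and 3 BM arrays (y axis), with the line of equal means. The 1577 genes called higher in Static cells lie below the line and the 1233 called lower above it, and both sets reach the ends of the range.

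The genes were grouped into lists by cell type and function. The share of all genes called lower, 6.86%, and called higher, 8.77%, is the background for each count below from the fit of the 6 arrays without slide. That fit called 2810 of the 17973 genes in either direction. The total was 3071, 2471 and 2467 without Static replicates 1, 2 and 3. It was 2310, 1825 and 1561 without BM replicates 1, 2 and 3. A list count with 1 array left out stands against these totals and can move with them. Lists of granulocytes, leukocytes, definitive red cells and antigen presentation held falls and no rises, and lists of matrix, growth factors and imprinted genes held rises and no falls. Counts with slide in the fit are given for some of the lists with many calls. With slide as a block over all 23 arrays, 20 of 20 neutrophil granule genes, 17 of 18 pan-leukocyte genes, 17 of 20 definitive erythroid genes, 9 of 10 MHC class II genes and 15 of 19 MHC class I genes were called lower. In the same fit 24 of 27 matrix genes, 16 of 22 imprinted genes and 27 of 43 growth factor genes were called higher. It also called 8 of 12 mast cell, basophil and eosinophil genes lower and all 3 embryonic globin genes higher. Over all 25697 probes it called 3057 higher and 3146 lower, against 1954 and 1724 in the fit of the 6 arrays. Over the 17973 genes it called 4706 in either direction. Its counts therefore stand against a larger background share. Within the shared slide, with Static replicates 1 and 2 against BM replicate 1, the BM arm was 1 array, so the spread came from the 2 Static arrays alone. That fit called far fewer probes in all than the fit of the 6 arrays. Its list counts cannot be read against the shares above, do not decide what part slide had and are not given.

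**Figure D2:**
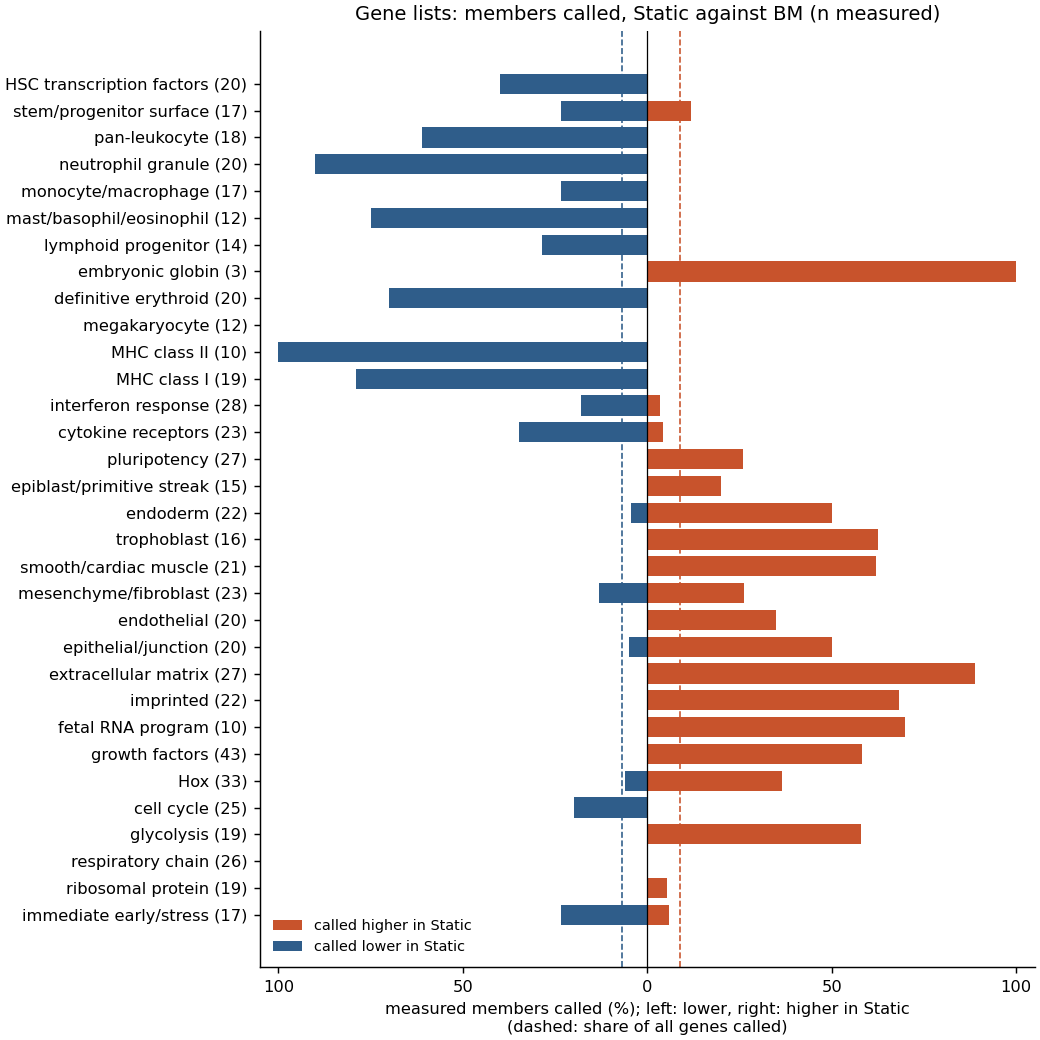
Share of the measured members of each gene list (number in brackets) called higher in Static cells (right, orange) or lower (left, blue). Dashed lines give the shares of all genes, 8.77% higher and 6.86% lower. All 10 MHC class II genes and 18 of 20 neutrophil granule genes were lower, and all 3 embryonic globins and 24 of 27 matrix genes were higher.

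Genes of granulocyte granules were far lower in Static cells. Of 20 neutrophil granule genes, 18 were lower in Static cells and none higher, with a median difference of -6.72 on the log2 scale. Ctsg, which encodes cathepsin G, a serine protease of the primary granules, read 5.57, 5.50 and 5.51 on the Static arrays, against 14.49, 14.37 and 14.72 on the BM arrays. Its 3 Static values lay below background, and the level was at least 212-fold lower in Static cells (log2 difference -9.00 ± 0.22, SE, limma adjusted p = 1.5e-06). Elane, which encodes neutrophil elastase of the same granules, read 6.09, 6.16 and 6.31 in Static cells and 13.94, 14.62 and 14.60 in BM cells, at least 192-fold lower in Static cells (adjusted p = 4.4e-06). Prtn3, the neighbouring proteinase 3 gene, was above background on 2 Static arrays (6.64, 7.91 and 8.20) and still 109-fold lower than in BM cells (14.11, 14.61 and 14.34). S100a8 and S100a9 encode the subunits of calprotectin, the main calcium-binding protein of neutrophil cytosol. S100a8 fell 256-fold and was above background on 1 Static array, with 5.71, 6.31 and 6.79 in Static cells and 13.83, 14.51 and 14.47 in BM cells, and S100a9 fell at least 108-fold. Ms4a3, a membrane protein gene of granulocyte and monocyte progenitors, fell at least 83.2-fold.

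Genes of the later, secondary granules were also lower in Static cells, but here the BM arrays differed among themselves. Lcn2, which encodes the iron-siderophore binder lipocalin 2, read 5.67, 5.47 and 5.61 in Static cells, and 9.02, 14.82 and 13.91 in BM cells. Ngp, a neutrophil granule protein gene, read 5.89, 6.01 and 5.87 in Static cells, and 9.37, 14.74 and 14.04 in BM cells. Camp, the cathelicidin gene, read 6.21, 6.23 and 5.92 in Static cells, and 10.77, 14.31 and 14.06 in BM cells. For each of these BM replicate 1 was the lowest BM array and the groups did not overlap, with adjusted p = 0.0071 for Lcn2, 0.0061 for Ngp and 0.00085 for Camp. Retnlg, a resistin-like gene of neutrophils, read 5.48, 5.65 and 5.44 in Static cells, and 8.43, 14.99 and 13.60 in BM cells, the lowest again on BM replicate 1. Ltf, the lactoferrin gene, was not called (adjusted p = 0.058): it read 5.94, 8.34 and 9.44 in Static cells and 9.25, 14.65 and 14.16 in BM cells. Mpo, which encodes myeloperoxidase of the primary granules, was not called either (adjusted p = 0.071). It read 7.07, 12.35 and 12.64 in Static cells and 14.71, 14.87 and 14.62 in BM cells. Static replicates 2 and 3 carried Mpo far above Static replicate 1, while their Ctsg and Elane lay below background. Leaving out any 1 array gave 18 or 19 genes called lower in this list. Retnlg was not called without BM replicate 3, Ltf was called without BM replicate 1 and Mpo without Static replicate 1.

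Eosinophil, basophil and mast cell genes fell alongside: 9 of 12 were lower and none higher, a count that leaving out any 1 array did not change, with a median of -4.49. Prg2, which encodes the major basic protein of eosinophil granules, read 5.65, 7.11 and 6.54 in Static cells and 13.99, 14.44 and 14.69 in BM cells, a 245-fold fall with 1 Static array above background (adjusted p = 1.6e-05). Ear2 and Ear4, ribonuclease genes of eosinophils, fell at least 96.4-fold and at least 66.6-fold, although near-identical copies of this family make the assignment of signal to either gene uncertain. Mcpt8, a protease gene of basophils, read 5.80, 5.57 and 5.38 in Static cells and 11.91, 10.67 and 10.72 in BM cells. Epx, the eosinophil peroxidase gene, fell at least 20.0-fold, and Hdc, which encodes the histamine-forming enzyme, fell 35.2-fold, with 2 Static arrays above background. Cma1 and Tpsb2, proteases of tissue mast cells, were below background on all 6 arrays. The BM marrow had been depleted with antibodies to CD11b and Gr-1 before the sort, and the source of its granulocyte transcripts was not tested.

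**Figure D3:**
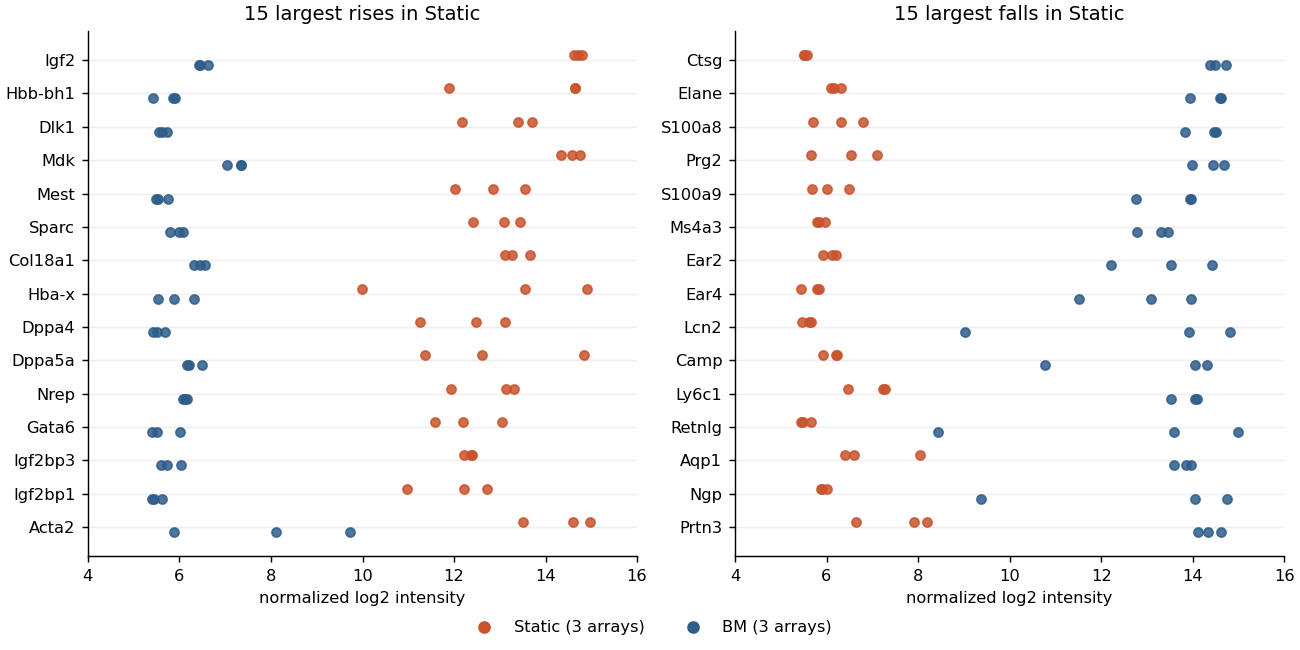
Normalized log2 intensity on each array for the 15 genes with the largest rises in Static cells (left) and the 15 with the largest falls (right), with Static arrays (orange) above BM arrays (blue) in each row. Only genes whose groups do not overlap were eligible. Lcn2, Camp, Retnlg and Ngp show 1 BM array, replicate 1, well below the other BM arrays.

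General leukocyte genes were lower, to different extents in the 3 Static arrays. Of 18 pan-leukocyte genes 11 were lower and none higher, with a median of -3.12, and the mean of the list was 6.76, 9.33 and 9.17 on the Static arrays and 10.93, 12.07 and 11.56 on the BM arrays. Ptprc encodes CD45, the phosphatase on all nucleated blood cells. Its values of 5.92, 6.12 and 5.85 in Static cells were below background, against 7.11, 8.51 and 7.78 in BM cells, at least 2.0-fold lower in Static cells (adjusted p = 0.0061). Its BM values were also low on the scale, and Ptprc was 1 of only 2 genes of this list below background on all Static arrays. Its absence alone therefore does not show a lack of leukocyte transcripts. Rac2, a GTPase gene of blood cells, read 5.97, 8.13 and 8.10 in Static cells and 10.67, 12.44 and 11.56 in BM cells, a 17.8-fold fall. Plac8, expressed in myeloid progenitors, fell 17.3-fold and Selplg, which encodes the adhesion ligand PSGL-1, fell 24.4-fold. Rac2 and Selplg were above background on 2 Static arrays. Coro1a, an actin regulator gene of leukocytes, was not called (7.98, 12.32 and 11.51 in Static cells, 13.51, 14.34 and 13.88 in BM cells, adjusted p = 0.054). Coro1a was called without Static replicate 1 or Static replicate 2. Without BM replicate 3, 7 of the 18 genes were called lower.

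Monocyte and macrophage genes lay nearer to the BM level on Static replicates 2 and 3 than on Static replicate 1. Of 17 genes 4 were called lower and none higher, and the list mean was 6.33, 8.88 and 8.57 on the Static arrays and 9.14, 10.46 and 10.15 on the BM arrays. Ccl3, a chemokine gene, read 6.79, 12.69 and 11.81 in Static cells and 10.97, 12.33 and 11.57 in BM cells. Static replicates 2 and 3 lay within or above the BM range and Static replicate 1 far below it, and no difference was called (adjusted p = 0.63). Alox5ap, needed for leukotriene synthesis, was also far lower on Static replicate 1 than on the other Static arrays, of which 1 lay within the BM range and 1 just below it, with 8.10, 12.23 and 12.88 in Static cells and 12.28, 13.77 and 13.22 in BM cells (adjusted p = 0.29). Lyz2, the lysozyme gene of myeloid cells, was lower (5.97, 9.26 and 9.21 in Static cells, 10.49, 14.30 and 14.35 in BM cells, adjusted p = 0.027). Irf8, a transcription factor gene of monocyte and dendritic cell development, was 10.2-fold lower. Lyz2 and Irf8 were above background on 2 Static arrays. The count was 7 without BM replicate 1 and 2 without BM replicate 2 or BM replicate 3, and Lyz2 was not called in either of the last pair.

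Genes of the sorted and depleted antigens were read next. Ly6a, the gene of Sca-1, was 9.34, 8.91 and 9.65 in Static cells and 7.84, 8.30 and 8.36 in BM cells. Both groups were above background on every array, and Static cells were 2.19-fold higher (adjusted p = 0.029). The call was lost without Static replicate 3 or without any 1 BM array. Ly6c1, whose product is part of the Gr-1 antigen, ran the other way, with 6.47, 7.24 and 7.27 in Static cells and 13.53, 14.06 and 14.09 in BM cells, a 120-fold fall with 2 Static arrays above background. Itgam, which encodes CD11b, was below background on all Static arrays and on 2 BM arrays (5.74, 5.70 and 5.67 in Static cells, 5.72, 7.29 and 6.53 in BM cells, adjusted p = 0.16). Itgam was called lower without BM replicate 1.

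Transcription factors of blood stem cells were lower or not called, and none was higher. Of 20 such genes 8 fell, with a median of -1.41. Gfi1, a repressor that acts in HSCs and granulocyte progenitors, read 6.55, 6.64 and 6.90 in Static cells and 10.62, 11.27 and 11.08 in BM cells, a 19.6-fold fall with 1 Static array above background (adjusted p = 3.4e-05). Lyl1 and Tal1 encode related factors at the centre of the blood program. Lyl1 read 6.10, 8.62 and 8.82 in Static cells and 10.36, 10.91 and 10.68 in BM cells, and Tal1 read 6.37, 9.10 and 8.83 in Static cells and 10.41, 10.19 and 10.73 in BM cells. Both fell (adjusted p = 0.023 and 0.046), and in both the lowest array was Static replicate 1, which lay below background. Lmo2, the bridging partner of Tal1, was not called, with 8.06, 12.24 and 12.20 in Static cells and 13.48, 13.41 and 13.53 in BM cells (adjusted p = 0.12). Ikzf1, a lymphoid and stem cell regulator gene, fell 6.60-fold, Fli1 3.54-fold and Gata2, needed for stem cell survival, 3.31-fold (9.33, 8.72 and 9.87 in Static cells, 11.37, 10.79 and 10.94 in BM cells). Ikzf1 and Fli1 were above background on 2 Static arrays. Meis1 and Hoxb4, genes of self-renewal factors, overlapped between the groups. Meis1 was 9.74, 11.22 and 10.57 in Static cells and 10.44, 10.66 and 10.77 in BM cells (adjusted p = 0.89), and Hoxb4 was 7.27, 8.43 and 8.32 in Static cells and 8.13, 8.28 and 7.92 in BM cells (adjusted p = 0.89). The count of 8 was 5 without Static replicate 3, 2 without BM replicate 2 and 3 without BM replicate 3. Lyl1, Tal1, Ikzf1 and Fli1 were not called without BM replicate 2 or BM replicate 3, nor Tal1 and Ikzf1 without BM replicate 1, nor Tal1 without Static replicate 3. Lmo2 was called lower without Static replicate 1.

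Of 17 surface genes of stem and progenitor cells 4 were lower and 2 higher, with a median of -0.22. The share called lower was 23.5%, against 6.86% of all genes. The share called higher, 11.8%, was near the 8.77% of all genes, and the 2 genes were Ly6a, the gene of the sorted Sca-1, and Tek. Cd27, a costimulatory receptor gene of multipotent progenitors, was below background on all Static arrays (6.21, 6.08 and 6.54, against 11.59, 11.72 and 11.99 in BM cells), at least 31.3-fold lower (adjusted p = 1.1e-05). Cxcr4, which encodes the receptor that holds HSCs in the marrow, read 7.08, 6.60 and 6.71 in Static cells and 10.78, 11.55 and 11.13 in BM cells, a 20.5-fold fall with 2 Static arrays above background (adjusted p = 3.9e-05). Its ligand gene Cxcl12 was 24-fold higher in Static cells, with 10.89, 12.27 and 11.83, against 7.11, 6.90 and 7.23 in BM cells (adjusted p = 0.0001). The ligand and the receptor gene differed in opposite directions, and the groups did not overlap in either. Cd93 fell 5.98-fold. Tek, which encodes the angiopoietin receptor Tie2 of endothelium and stem cells, rose 5.52-fold (7.73, 10.32 and 10.77 in Static cells, 7.14, 7.13 and 7.16 in BM cells, adjusted p = 0.047). The rises numbered 5 without Static replicate 1, 1 without Static replicate 2, and 0 without Static replicate 3 or any 1 BM array. Tek was not called without Static replicate 2, Static replicate 3 or any 1 BM array. The falls numbered 2 without BM replicate 2 or BM replicate 3, and Cd93 was not called without any 1 BM array.

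Among 23 cytokine receptor genes 8 were lower and 1 higher. Csf3r, which encodes the G-CSF receptor, read 6.21, 8.18 and 8.25 in Static cells and 9.91, 11.93 and 10.68 in BM cells, a 9.80-fold fall with 2 Static arrays above background. Il18r1 and Ifngr1, receptor genes for interleukin 18 and interferon gamma, fell at least 2.37-fold and 5.05-fold. Il6st, the shared signalling chain of the interleukin 6 family, was the gene that rose (8.71, 8.49 and 8.35 in Static cells, 7.36, 7.25 and 7.33 in BM cells, 2.30-fold, adjusted p = 0.0051). Without BM replicate 3, 4 receptor genes were called lower.

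Of 14 lymphoid progenitor genes 4 were lower and none higher, and their BM level was highest on BM replicate 1. Dntt, which encodes the enzyme that adds bases at antigen receptor joints, read 5.77, 6.01 and 5.77 in Static cells, below background, and 9.86, 7.76 and 8.34 in BM cells. The count was 2 without Static replicate 2, Static replicate 3 or BM replicate 3. Of 12 megakaryocyte genes none was called by limma, and 2 were lower at an unadjusted p under 0.05. Both forms of the methods' t-test, run here on all probes without the paper's ANOVA step, called none after adjustment. With all 23 arrays in the fit 3 were called lower. Over all 25697 probes, 6946 had an unadjusted p under 0.05 in either direction, and 3212 were called lower with all 23 arrays. Without Static replicate 1, 1 megakaryocyte gene was called higher and 1 lower, and without Static replicate 2, 2 were called lower. Pf4, a platelet chemokine gene, ranged widely in Static cells (6.06, 12.49 and 9.56), against 12.61, 11.19 and 11.94 in BM cells (adjusted p = 0.27), and Nfe2, a factor gene of platelet and red cell formation, read 7.11, 11.65 and 11.25 in Static cells and 12.51, 13.09 and 13.05 in BM cells (adjusted p = 0.11). Pf4 was called lower without Static replicate 2 and Nfe2 without Static replicate 1.

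Embryonic and definitive red cell genes differed in opposite directions. All 3 embryonic globin genes were higher in Static cells, and of 20 genes of definitive red cells 14 were lower and none higher, with a median of -2.85. Hbb-bh1, an embryonic beta-like globin gene, read 11.90, 14.65 and 14.65 in Static cells, against 5.43, 5.91 and 5.85 in BM cells, all below background, at least 110-fold higher in Static cells (log2 difference 8.01 ± 0.68, SE, adjusted p = 0.00015). Hba-x, the embryonic alpha-like globin gene, read 9.99, 14.91 and 13.56 in Static cells and 6.31, 5.87 and 5.54 in BM cells, at least 58.6-fold higher (adjusted p = 0.003). Hbb-y, the other embryonic beta-like gene, read 8.77, 14.82 and 12.00 in Static cells and 5.77, 5.72 and 5.89 in BM cells, at least 30.2-fold higher (adjusted p = 0.012). Static replicate 1 was the lowest Static array for each, yet far above every BM array. All 3 stayed called without any 1 array, while the fit within the shared slide, with 1 BM array, decides nothing for them.

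The adult globins were not uniform. Hbb-bt read 6.26, 6.77 and 5.79 in Static cells, below background, and 9.45, 11.41 and 12.23 in BM cells, at least 18.7-fold lower (adjusted p = 0.0016). Hbb-b2 read 6.02, 8.54 and 6.35 in Static cells and 11.30, 12.56 and 12.76 in BM cells, 37.7-fold lower with 1 Static array above background (adjusted p = 0.0012). Hba-a1, which is shared by primitive and definitive red cells, was not called: 9.74, 14.65 and 14.18 in Static cells and 14.58, 15.09 and 15.09 in BM cells (adjusted p = 0.28). As 15.09 was the highest value on any array, BM replicates 2 and 3 read at the top of the scale for Hba-a1 and its difference may be compressed. The adult beta and alpha globin copies are nearly identical, so which copy gave a signal is uncertain. Klf1, which encodes a master regulator of adult beta globin, fell 17.7-fold (6.60, 10.10 and 8.21 in Static cells, 12.80, 12.03 and 12.52 in BM cells, adjusted p = 0.0071). Aqp1, the red cell water channel gene, fell 111-fold, with 6.41, 6.59 and 8.05 in Static cells and 13.85, 13.60 and 13.97 in BM cells. Ermap, a red cell membrane gene, fell 15-fold and Epor, the erythropoietin receptor gene, 4.07-fold. Aqp1 and Ermap were above background on 1 Static array, and Klf1 and Epor on 2. Slc4a1, which encodes the band 3 anion exchanger, was not called (7.71, 12.86 and 10.80 in Static cells, 12.60, 14.60 and 14.80 in BM cells, adjusted p = 0.082). The count of 14 was 9 without BM replicate 2 and 8 without BM replicate 3. Epor was not called without BM replicate 3, and Slc4a1 was called without Static replicate 2.

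**Figure D4:**
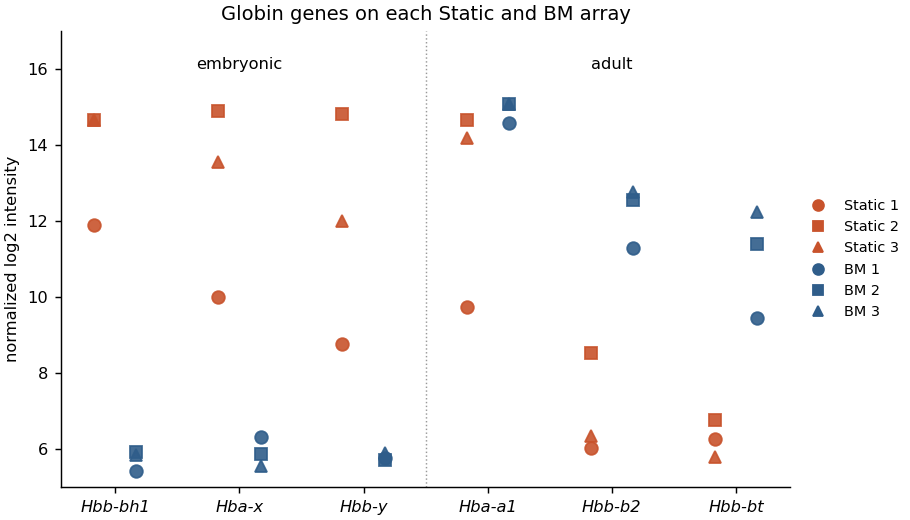
Normalized log2 intensity of 3 embryonic and 3 adult globin genes on each Static (orange, left) and BM (blue, right) array, with a marker shape for each replicate. The embryonic genes lie between 8.77 and 14.91 in Static cells and at 6.31 or lower in BM cells. Hbb-b2 and Hbb-bt lie the other way round, and Hba-a1 overlaps in range.

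The promoters of the 2 embryonic globin genes found in the promoter table are shown because these genes moved together. Each runs from 250 bases before to 50 bases after the RefSeq start site in mouse build GRCm38.p6. Capitals mark TGATAA, a motif of erythroid zinc finger factors, and CACCC, the kind of box bound by Klf factors. Both strands were searched.
Hba-x (chr11:32276350-32276649, plus strand): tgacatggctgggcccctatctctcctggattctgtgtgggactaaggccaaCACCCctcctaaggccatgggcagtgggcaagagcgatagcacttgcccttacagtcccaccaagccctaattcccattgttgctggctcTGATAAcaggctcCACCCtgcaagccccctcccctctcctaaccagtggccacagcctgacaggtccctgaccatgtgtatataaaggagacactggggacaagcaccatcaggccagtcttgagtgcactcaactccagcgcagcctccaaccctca
Hbb-y (chr7:103853158-103853457, minus strand): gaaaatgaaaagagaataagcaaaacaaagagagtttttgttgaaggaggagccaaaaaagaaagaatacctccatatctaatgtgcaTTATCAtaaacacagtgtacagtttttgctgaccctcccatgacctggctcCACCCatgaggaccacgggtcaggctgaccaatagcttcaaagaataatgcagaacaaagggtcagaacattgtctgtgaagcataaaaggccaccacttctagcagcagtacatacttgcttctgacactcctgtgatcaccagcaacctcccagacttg
In Hba-x the capitals start 198 (CACCC), 108 (TGATAA) and 95 (CACCC) bases before the start site, and in Hbb-y 162 (TGATAA on the other strand) and 111 (CACCC) bases before it. Of all 32851 promoters of this length, 9.05% held TGATAA and 57.5% held CACCC on either strand. The matches describe letters in the window and do not overlap each other.

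Genes of antigen presentation were low in Static cells. All 10 MHC class II genes, which include the 2 chains of the presenting molecule, its invariant chain and its loading factors, were lower, with a median of -3.13, and leaving out any 1 array did not change this count. The list mean was 6.23, 6.17 and 6.26 on the Static arrays and 8.75, 9.40 and 9.10 on the BM arrays, and 8 of the 10 genes were below background on all Static arrays. Cd74, the invariant chain gene, read 6.18, 6.25 and 6.08 in Static cells and 9.73, 11.39 and 10.74 in BM cells, at least 14.1-fold lower (adjusted p = 0.00018). H2-Aa, the gene of an alpha chain, read 5.87, 6.04 and 5.80 in Static cells and 10.04, 10.75 and 10.11 in BM cells, at least 11.3-fold lower (adjusted p = 3.1e-05). H2-Eb1, the gene of a beta chain, read 6.49, 5.65 and 6.01 in Static cells and 8.57, 10.36 and 9.64 in BM cells. H2-DMa and H2-DMb1 encode the chains of the peptide exchange factor: H2-DMa fell 12.9-fold and H2-DMb1 at least 5.33-fold (6.75, 5.98 and 6.58 in Static cells, 8.91, 9.37 and 9.36 in BM cells). H2-Ob, whose product modulates that factor in B cells, fell at least 2.46-fold (5.56, 6.03 and 5.92 in Static cells, 8.33, 7.87 and 8.08 in BM cells). Ciita, the master transactivator gene of the class, also fell (5.52, 5.58 and 5.80 in Static cells, 6.41, 6.92 and 6.47 in BM cells, adjusted p = 0.0059), at levels near background. No Static array overlapped the BM range for any gene printed here.

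Class II promoters carry a conserved set of boxes that includes an inverted CCAAT box. The promoters of 4 members are shown over the same window and build, with CCAAT or its reverse complement ATTGG in capitals.
H2-Aa (chr17:34287774-34288073, minus strand): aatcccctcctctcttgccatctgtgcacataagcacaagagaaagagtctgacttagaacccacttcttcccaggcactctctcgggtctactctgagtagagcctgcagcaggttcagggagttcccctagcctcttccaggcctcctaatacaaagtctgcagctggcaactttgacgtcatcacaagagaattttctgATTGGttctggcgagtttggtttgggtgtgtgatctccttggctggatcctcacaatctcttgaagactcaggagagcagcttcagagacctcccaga
H2-Eb1 (chr17:34305617-34305916, plus strand): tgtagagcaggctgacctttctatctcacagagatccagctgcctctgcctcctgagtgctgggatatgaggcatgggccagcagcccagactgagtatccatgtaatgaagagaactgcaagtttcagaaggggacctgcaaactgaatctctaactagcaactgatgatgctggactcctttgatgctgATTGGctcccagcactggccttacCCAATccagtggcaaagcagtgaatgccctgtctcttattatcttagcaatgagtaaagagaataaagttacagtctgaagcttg
H2-DMb1 (chr17:34152941-34153240, plus strand): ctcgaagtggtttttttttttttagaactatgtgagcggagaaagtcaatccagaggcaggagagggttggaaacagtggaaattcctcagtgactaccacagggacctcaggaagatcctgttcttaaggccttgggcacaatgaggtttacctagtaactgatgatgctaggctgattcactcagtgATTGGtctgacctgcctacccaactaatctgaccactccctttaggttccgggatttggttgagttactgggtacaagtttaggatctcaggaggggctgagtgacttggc
H2-Ob (chr17:34238655-34238954, plus strand): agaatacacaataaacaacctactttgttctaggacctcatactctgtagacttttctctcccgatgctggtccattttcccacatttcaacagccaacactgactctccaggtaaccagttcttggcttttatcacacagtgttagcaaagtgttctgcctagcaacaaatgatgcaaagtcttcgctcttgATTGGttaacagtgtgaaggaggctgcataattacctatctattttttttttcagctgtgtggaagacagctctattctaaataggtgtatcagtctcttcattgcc
The box written ATTGG started 48 bases before the start site in H2-Aa, 59 in H2-Eb1, 61 in H2-DMb1 and 57 in H2-Ob, and H2-Eb1 also held CCAAT 35 bases before it. All 7 of the 10 members found in the promoter table held the letters on either strand, as did 37.4% of 32851 promoters. A match is a description of the sequence and not evidence that a factor bound it in these cells.

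MHC class I genes and those of their peptide supply were lower as well: 15 of 19 were lower and none higher, with a median of -1.80. Psmb9, an immunoproteasome subunit gene, read 7.91, 7.75 and 7.36 in Static cells and 11.19, 11.12 and 11.10 in BM cells, 11.1-fold lower (adjusted p = 5.4e-05). Tap2, which encodes a peptide transporter chain, read 7.81, 7.21 and 7.73 in Static cells and 10.51, 11.07 and 10.56 in BM cells, 8.76-fold lower. H2-T23, H2-T10 and H2-Q7 fell 10.1-fold, at least 4.77-fold and at least 7.07-fold, although class I genes are similar enough in sequence that signal may be shared among them. B2m, the gene of the class I light chain, read 11.01, 12.85 and 12.52 in Static cells and 14.10, 14.10 and 14.15 in BM cells, 3.98-fold lower (adjusted p = 0.014), with 1 of its 3 probes of the opposite sign. B2m was not called without BM replicate 3, and leaving out any 1 array gave 14 or 15 calls. Of 28 interferon response genes 5 were lower and 1 higher. Ifi47, a GTPase gene induced by interferon gamma, fell at least 9.39-fold (5.61, 6.46 and 5.79 in Static cells, 10.24, 9.84 and 10.01 in BM cells), whereas Ifitm3, an antiviral membrane protein gene, read 11.97, 11.74 and 11.86 in Static cells and 11.41, 13.50 and 12.80 in BM cells (adjusted p = 0.38). Ifitm3 was called lower without BM replicate 1. The rise numbered 3 without Static replicate 1 and 0 without Static replicate 2, BM replicate 1 or BM replicate 3. The falls in this list numbered 8 without BM replicate 1 and 3 without BM replicate 2 or BM replicate 3.

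Imprinted genes, many of which act in fetal growth, were higher in Static cells. Of 22 imprinted genes 15 were higher and none lower, with a median of 2.13. Igf2, the fetal growth factor gene expressed from the paternal allele, read 14.62, 14.71 and 14.79 in Static cells and 6.63, 6.44 and 6.43 in BM cells. It was below background on all BM arrays and at least 216-fold higher in Static cells (log2 difference 8.20 ± 0.21, SE, adjusted p = 1.5e-06). H19, the maternally expressed RNA of the same locus, was at least 19-fold higher (10.49, 11.51 and 11.60 in Static cells, 6.02, 6.08 and 6.04 in BM cells). Dlk1, a membrane protein gene of the Notch ligand family, read 12.18, 13.39 and 13.71 in Static cells and 5.73, 5.56 and 5.61 in BM cells, at least 70.8-fold higher. Mest, a paternally expressed hydrolase gene, was at least 58.2-fold higher. Cdkn1c, which encodes the cyclin-dependent kinase inhibitor p57, read 12.05, 12.67 and 14.09 in Static cells and 6.46, 6.77 and 6.81 in BM cells, at least 63.6-fold higher (adjusted p = 8.4e-05). The groups did not overlap for any of these genes, and leaving out any 1 array gave 12 to 15 calls. Gnas, which encodes a stimulatory G protein subunit, was above background in both groups and not called (adjusted p = 0.22).

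Of 10 genes of a fetal program of RNA-binding, chromatin and transcription factors, 7 were higher and none lower, with 6 or 7 without any 1 array. Igf2bp3 read 12.22, 12.36 and 12.39 in Static cells and 6.03, 5.72 and 5.60 in BM cells, at least 41.4-fold higher (adjusted p = 5.3e-06), and Igf2bp1 was at least 32.6-fold higher. Both encode proteins that bind Igf2 mRNA among others. Igf2bp2, the family member with adult expression, was above background on all 6 arrays and rose 24.3-fold (12.15, 12.35 and 12.80 in Static cells, 7.77, 7.89 and 7.83 in BM cells). Lin28a, which encodes the let-7 inhibitor, was not called, with 9.97, 8.26 and 7.42 in Static cells and 6.23, 7.79 and 6.95 in BM cells (adjusted p = 0.16).

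Secreted growth factors and their binding proteins were higher for 25 of 43 genes and lower for none. Mdk, the gene of the heparin-binding factor midkine, read 14.34, 14.75 and 14.57 in Static cells and 7.35, 7.34 and 7.04 in BM cells, a 159-fold rise (adjusted p = 4.4e-06). Igfbp5, which encodes a carrier of insulin-like growth factors, read 11.75, 12.78 and 12.84 in Static cells and 6.19, 5.92 and 6.23 in BM cells. Bmp4, the gene of a factor that specifies mesoderm, was at least 18.4-fold higher (10.44, 11.27 and 11.73 in Static cells, 5.63, 5.83 and 5.78 in BM cells). Ccn2, a matrix-associated growth regulator gene, was at least 31.3-fold higher. Tgfb1 was not called, with 8.38, 9.20 and 9.74 in Static cells and 9.72, 9.67 and 9.59 in BM cells (adjusted p = 0.36). Leaving out any 1 array gave 21 to 25 genes called higher. Of 24 chemokine and chemokine receptor genes 1, Cxcl12, was higher and 2 were lower. The falls numbered 4 without Static replicate 2 or BM replicate 1 and 1 without BM replicate 2 or BM replicate 3, and without Static replicate 1 the rises numbered 2.

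Extracellular matrix genes had the largest share of rises among lists of more than 10 genes: 24 of 27 were higher and none lower, with a median of 3.74. The list mean was 10.22, 10.54 and 10.86 on the Static arrays and 6.63, 6.73 and 6.73 on the BM arrays. Sparc, a collagen-binding glycoprotein gene, read 12.41, 13.10 and 13.44 in Static cells and 6.07, 5.79 and 5.98 in BM cells, at least 65.7-fold higher (adjusted p = 1.1e-05). Col18a1 and Col4a1 encode basement membrane collagens. Col18a1 read 13.12, 13.27 and 13.65 in Static cells and 6.32, 6.44 and 6.55 in BM cells, at least 84.3-fold higher, and Col4a1 was at least 43.1-fold higher. The laminin genes Lama1 and Lamc1 were at least 17.4-fold and at least 14.5-fold higher, and Hspg2, the perlecan gene, at least 19.9-fold. Gpc3, a heparan sulfate proteoglycan gene of fetal tissue, rose 47.5-fold, with 2 BM arrays above background. Of the list, 20 genes lay below background on all BM arrays and none on all Static arrays, and leaving out any 1 array gave 22 to 25 calls.

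The level of pluripotency genes differed widely between the 3 Static arrays. Of 27 genes 7 were called higher and none lower, with a median of 2.02, and the list mean was 10.57, 8.24 and 7.56 on the Static arrays and 6.51, 6.77 and 6.64 on the BM arrays. Nanog, which encodes a homeodomain factor of naive ESCs, read 13.49, 10.59 and 8.20 in Static cells, all above background, and 6.05, 6.05 and 5.98 in BM cells, all below it, at least 14.1-fold higher (adjusted p = 0.021). Pou5f1, which encodes Oct4, read 12.49, 8.78 and 7.24 in Static cells and 5.67, 5.81 and 5.60 in BM cells, without overlap but with adjusted p = 0.053. Esrrb, an orphan receptor gene of the same network, read 13.10, 9.39 and 8.00 in Static cells and 5.87, 5.59 and 5.79 in BM cells (adjusted p = 0.028). For Nanog and Esrrb the value of Static replicate 1 lay within 1 log2 unit of the mean of undifferentiated ESCs, 12.60 and 12.33. Dppa4 and Dppa5a, genes expressed in early embryos and germ cells, were high on every Static array. Dppa4 read 13.11, 11.26 and 12.48 in Static cells and 5.68, 5.52 and 5.42 in BM cells, and Dppa5a read 14.85, 12.62 and 11.37 in Static cells and 6.17, 6.21 and 6.49 in BM cells. Sall4, a zinc finger gene of ESCs and fetal progenitors, was at least 22.8-fold higher (13.00, 10.90 and 10.48 in Static cells, 6.39, 6.17 and 5.99 in BM cells). Klf2 and Klf4 were not called and their means were lower in Static cells. Klf4 read 10.51, 8.47 and 8.49 in Static cells and 9.33, 11.48 and 10.71 in BM cells (adjusted p = 0.25).

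The count of pluripotency genes called moved with single arrays. Without Static replicate 1 it was 12 higher and 2 lower. It was 12 without Static replicate 3, and 4 without Static replicate 2 or any 1 BM array, and Nanog and Esrrb were not called in those fits. Pou5f1 was called without Static replicate 1 or Static replicate 3, Klf2 was called lower without BM replicate 1 and Klf4 without Static replicate 1. The leukocyte and erythroid lists ran in the other direction on the same array: Static replicate 1 had the highest pluripotency mean (10.57) and the lowest pan-leukocyte (6.76), monocyte (6.33), definitive erythroid (6.66) and megakaryocyte (6.31) means of the 3 Static arrays. Without it, 14 of 18 pan-leukocyte genes and 8 of 20 transcription factor genes of blood stem cells were called lower.

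**Figure D5:**
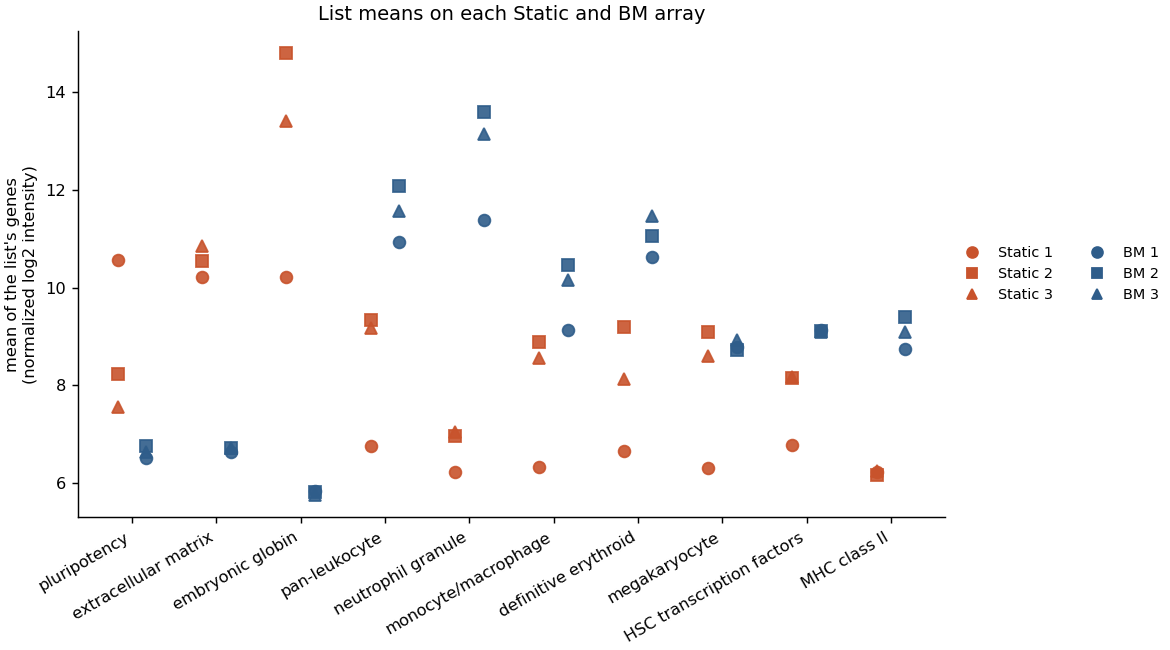
Mean normalized log2 intensity over the genes of 10 lists on each Static (orange, left) and BM (blue, right) array, with a marker shape for each replicate. Static replicate 1 (orange circle) has the highest pluripotency mean, 10.57, and the lowest means of the blood lists. For matrix genes and MHC class II genes the Static arrays lie close together and apart from the BM arrays.

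Endoderm genes were higher for 11 of 22 and lower for 1. Gata6, a factor gene of primitive endoderm and heart mesoderm, read 11.58, 13.04 and 12.19 in Static cells and 6.01, 5.41 and 5.51 in BM cells, at least 40.0-fold higher (adjusted p = 3.1e-05). Ttr, a transport protein gene of visceral endoderm and liver, was at least 17.2-fold higher and highest on Static replicate 3 (10.61, 9.67 and 12.88, against 6.96, 6.59 and 6.66 in BM cells). Trf, the transferrin gene, was the fall. Without BM replicate 3, 7 endoderm genes were called higher. Trophoblast genes were higher for 10 of 16, with 7 to 10 without any 1 array. Cdx2 read 9.84, 9.56 and 9.94 in Static cells and 5.76, 5.96 and 5.89 in BM cells, and Rhox5, a homeobox gene of extraembryonic tissue, read 12.28, 10.98 and 11.10 in Static cells and 5.75, 5.79 and 5.95 in BM cells, at least 22.7-fold higher.

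Muscle genes were higher for 13 of 21 and lower for none. Acta2, the smooth muscle actin gene, read 13.51, 14.59 and 14.96 in Static cells and 5.87, 9.72 and 8.11 in BM cells, an 87.7-fold rise (adjusted p = 0.0015), and was above background on 2 BM arrays. Des, which encodes the intermediate filament desmin, was at least 7.26-fold higher and Isl1, a heart progenitor factor gene, at least 4.12-fold. Of 23 mesenchyme and fibroblast genes 6 were higher and 3 lower. Pdgfra, a growth factor receptor gene of mesoderm and fibroblasts, read 10.44, 11.37 and 10.61 in Static cells and 5.93, 5.54 and 5.56 in BM cells, at least 14.5-fold higher (adjusted p = 2.9e-05). Col1a1 and Col3a1, the fibrillar collagen genes, were at least 6.94-fold and at least 10.7-fold higher, and Col3a1 was highest on Static replicate 2 (9.43, 12.41 and 9.26). Vcam1, an adhesion gene of marrow stroma and early blood cells, fell 15.5-fold with 1 Static array above background, at 6.30, 6.77 and 7.60 in Static cells and 9.62, 11.53 and 11.40 in BM cells. Without Static replicate 1, 10 genes of the mesenchyme list were called higher. Feeder fibroblasts were present in the ESC expansion, and their part in these values was not tested.

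Endothelial genes were higher for 7 of 20 and lower for none, and Static replicate 3 had the highest list mean (7.90, 8.78 and 10.03 in Static cells, 7.48, 7.56 and 7.59 in BM cells). Ramp2, a receptor-modifying protein gene needed for vessels, read 11.47, 12.13 and 12.52 in Static cells and 7.09, 6.95 and 6.99 in BM cells, a 32.6-fold rise (adjusted p = 3.4e-05). Cldn5, the tight junction gene of endothelium, read 7.60, 9.50 and 11.09 in Static cells and 5.87, 5.49 and 5.60 in BM cells. Etv2, which encodes a factor that starts blood and vessel formation, was at least 3.61-fold higher. Esam was not called, with 8.78, 9.60 and 11.81 in Static cells and 7.59, 8.57 and 8.48 in BM cells (adjusted p = 0.13) but was without Static replicate 1. The count was 11 without Static replicate 1, 4 without Static replicate 2 or BM replicate 1, and 3 without BM replicate 2 or BM replicate 3. Epithelial and junction genes were higher for 10 of 20 and lower for 1. Krt8, a keratin gene of simple epithelia, read 12.24, 12.47 and 13.02 in Static cells and 6.71, 6.86 and 6.65 in BM cells, at least 49.4-fold higher. Cldn6, a claudin gene of embryonic epithelium, was high on Static replicates 1 and 3 and lower on Static replicate 2 (11.66, 8.71 and 12.07, against 6.28, 6.01 and 6.01 in BM cells).

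Neural genes were mostly not detected: 15 of 22 lay below background on all 6 arrays, and 3 were called higher, a count that was 6 without Static replicate 2 and 4 without Static replicate 1 or Static replicate 3. Tubb2b, a tubulin gene, read 12.78, 12.60 and 11.66 in Static cells and 6.45, 6.37 and 6.21 in BM cells, and 1 of its 6 probes ran the other way. Hox genes, which set position along the body axis, were higher for 12 of 33 and lower for 2. Hoxd8 read 9.07, 9.79 and 9.63 in Static cells and 5.38, 5.46 and 5.62 in BM cells, at least 5.84-fold higher (adjusted p = 3.2e-05), and Hoxc6 and Hoxc9 were at least 6.97-fold and at least 4.20-fold higher. The falls were Hoxa7 and Hoxa9, the second a factor gene of blood progenitors, which read 6.52, 6.82 and 6.32 in Static cells and 7.24, 7.30 and 7.36 in BM cells (adjusted p = 0.029). Hoxa9 was not called without Static replicate 3 or any 1 BM array. Of 15 epiblast and primitive streak genes 3 were higher.

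Growth and metabolism differed in some pathways and not in others. Glycolysis genes were higher for 11 of 19 and lower for none, with 7 without BM replicate 3. Slc2a1, which encodes the glucose transporter GLUT1, read 13.06, 13.65 and 14.24 in Static cells and 8.58, 10.00 and 9.37 in BM cells, a 20.1-fold rise (adjusted p = 0.00028). Aldoa, the aldolase gene, read 13.89, 14.10 and 13.28 in Static cells and 11.57, 11.89 and 11.35 in BM cells, a 4.43-fold rise. Gapdh, often used as a constant reference, rose 1.64-fold (14.19, 14.06 and 13.96 in Static cells, 13.38, 13.39 and 13.30 in BM cells, adjusted p = 0.0097) and was not called without BM replicate 3. Of 9 housekeeping genes 1 was higher and 2 were lower. Of 26 respiratory chain genes none was called, with 1 lower at an unadjusted p under 0.05, none by either form of the methods' t-test and 3 lower with all 23 arrays in the fit. Atp5b, an ATP synthase gene, read 14.56, 14.33 and 14.83 in Static cells and 14.66, 14.53 and 14.50 in BM cells. Of 19 ribosomal protein genes 1 was called, Rpl22, which rose 2.85-fold. Of 9 DNA methylation genes none was called by limma or by the methods' t-test. At an unadjusted p under 0.05, 1 of these genes was higher and 2 were lower. With all 23 arrays in the fit, 1 was called higher and 1 lower. Over all 25697 probes, 6946 had an unadjusted p under 0.05 in either direction. The fit with all 23 arrays called 3189 of these probes higher and 3212 lower. The respiratory chain and DNA methylation counts stand against this background and were not tested against it.

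Cell cycle genes were lower for 5 of 25 and higher for none. Cdc6, a replication licensing gene, read 9.85, 9.13 and 9.17 in Static cells and 11.15, 10.66 and 11.21 in BM cells, a 3.08-fold fall (adjusted p = 0.007), and Ccne2, a cyclin E gene, fell 2.80-fold. Plk1, a mitotic kinase gene, fell 1.86-fold. The count was 10 without Static replicate 1, 3 without Static replicate 2, Static replicate 3, BM replicate 1 or BM replicate 2, and 1 without BM replicate 3. Cdc6 was not called without BM replicate 3, nor Plk1 without Static replicate 2 or any 1 BM array. Cell cycle inhibitors and regulators changed in both directions, with 6 of 17 higher and 4 lower. Cdkn2c, which encodes the inhibitor p18, fell 7.98-fold (6.68, 7.03 and 7.16 in Static cells, 9.62, 10.12 and 10.11 in BM cells), and Rb1, the retinoblastoma gene, fell 4.20-fold. Cdkn2c was above background on 2 Static arrays. Cdkn2a, the locus of p16 and p19Arf, was at least 3.0-fold higher (8.43, 8.50 and 8.67 in Static cells, 5.46, 5.91 and 5.57 in BM cells). Without BM replicate 1 the split was 3 higher and 7 lower. Target genes of p53 were higher for 5 of 12, among them Zmat3, which rose 5.80-fold, and Cdkn1a, which encodes the inhibitor p21 and rose 3.13-fold, and 3 were called without Static replicate 3 or BM replicate 2. Cdkn1a was not called without Static replicate 2, Static replicate 3, BM replicate 1 or BM replicate 2.

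Immediate early and stress genes, which respond to cell handling, were lower for 4 of 17 and higher for 1. Fosb read 8.19, 9.37 and 9.25 in Static cells and 11.38, 12.91 and 12.71 in BM cells, a 10.5-fold fall (adjusted p = 0.0019), Dusp1 fell 4.39-fold and Fos 3.60-fold. Egr1 was not called (12.72, 13.73 and 13.94 in Static cells, 12.21, 14.35 and 13.82 in BM cells). Hspb1, a small heat shock protein gene, was the rise, 17.8-fold, with 1 BM array above background. Without BM replicate 1, 7 genes were called lower. Xist, the RNA of the inactive X chromosome, was below background on all arrays of the male Static cells (5.98, 6.18 and 6.24) and read 9.50, 8.90 and 8.69 in BM cells. The Y-linked gene Eif2s3y read 11.21, 11.56 and 10.51 in Static cells and 10.07, 5.61 and 10.13 in BM cells. Ddx3y, also Y-linked, read 11.08, 11.81 and 11.12 in Static cells and 10.96, 9.78 and 10.52 in BM cells, above background on every array. BM replicates 1 and 3 thus carried Xist together with signal of both Y-linked genes. On BM replicate 2 Eif2s3y was not above background, and of these Y-linked genes only Ddx3y was. The mean of the 5 sex-linked genes, Xist among them, was 9.07, 7.38 and 8.82 on the BM arrays. The BM arrays therefore differed among themselves in Y-linked signal, and sex and group were partly confounded.

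The other groups of the series give the levels of the same genes as a description. Of the 1577 genes called higher in Static than in BM cells, the mean of undifferentiated ESCs lay above the midpoint of Static and BM for 1148 (72.8%), that of Spinner cells for 1153 (73.1%) and that of Synthecon cells for 1163 (73.7%), but that of fetal liver LKS cells for 104 (6.59%). Of the 1233 genes called lower, the fetal liver mean lay above the midpoint for 999 (81.0%), and the mean of undifferentiated ESCs for 131 (10.6%). Exceptions were the embryonic globins, which were high in Static cells alone among the ESC-derived groups: Hbb-bh1 averaged 5.94 in undifferentiated ESCs, 5.81 in Spinner cells, 7.12 in Synthecon cells and 9.13 in fetal liver cells. Cdx2 averaged 8.61 in undifferentiated ESCs, 5.82 in Spinner cells and 6.07 in Synthecon cells, and Dlk1 averaged 8.15, 7.45 and 7.52 in these groups. Igf2bp3 was high in fetal liver cells as well, with a mean of 11.38, whereas Igf2 there averaged 9.93.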

How the data were processed

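RNA of 23 LKS or ESC samples was hybridised to mouse 1-colour bead arrays; the 3 Static and 3 BM arrays were compared. The authors read the arrays with BeadStudio, subtracted background, quantile-normalized all arrays together and deposited log2 values for 25697 probes, with the unnormalized intensities and detection p-values beside them. Between 25.5% and 31.8% of the deposited intensities on the 6 arrays lay below 0, whereas no log2 value lay below 4.90, so differences between dim probes are compressed. The deposited columns of the authors' own group tests were not used. Values of the series record differed from the deposited log2 values by at most 5e-09.

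Probes were named through their accessions in a RefSeq gene table (24202 probes, 94.2%) and otherwise by the deposited symbol, giving 17973 genes, each read from its brightest probe over all arrays. The log2 values were fitted with limma 3.58.1 (lmFit and eBayes with trend) in R 4.3.3, tested on simulated data first, and p-values were adjusted by Benjamini-Hochberg over all probes. A call is an adjusted p under 0.05, and above background is a detection p under 0.01. The number of arrays limits the precision.

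Members and lists were chosen with earlier results of these data known. Named genes were the 15 largest rises and falls without overlap, above background on every array of the higher group; up to 5 called members and up to 2 bright uncalled members of each of 40 lists; and the genes of the sorted antigens. Other genes named were chosen after their values were seen, and some genes that the rule names are not reported here. Promoters are RefSeq windows of GRCm38.p6, and no motif match was tested. Alternatives covered the arrays in the fit, slide, replicate block, leaving out each array, test, variance model, array weights, filter, background correction, normalization, value table and reading of several probes.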

Additional observations from a re-analysis of the deposited data

How the results depend on the processing

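Of 25697 probes 3678 were called and 908 of them changed at least 5-fold. The counts were 6401 called with a fit over all 23 arrays, 6203 with slide as a block in that fit, and 103 called with 100 at least 5-fold within the shared slide. The methods' t-test was run here on all 25697 probes, without the ANOVA over all groups by which the paper first selected genes. It gave 1832 and 580 after Benjamini-Hochberg adjustment with equal variances, and 312 and 143 with unequal variances. These are therefore not the counts of the paper's own procedure. Scaling to equal medians with an offset of 16 gave 1720 at least 5-fold, and 41.1% of its calls were higher in Static cells, against 53.1% in the quantile-normalized values. Leaving out 1 array gave 2001 (without BM replicate 3) to 4003 (without Static replicate 1) calls and 803 to 972 at least 5-fold. Of 2810 genes called, 1560 (55.5%) were called in the same direction without BM replicate 3, 1801 (64.1%) without BM replicate 2 and 2501 (89.0%) without Static replicate 1. The cause was not tested. The other alternatives stayed within 1.5 times of both counts.

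No pairing by replicate number was assumed. Deviations of the same-numbered Static and BM arrays correlated at 0.25, 0.02 and 0.17, and those of differently numbered arrays at -0.28 to 0.23. These values do not settle whether the numbers pair the samples. The replicate block gave 3875 calls and 943 at least 5-fold.

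The 165 named genes called were picked by their changes in these same values, so their direction was largely fixed in advance. Where the groups do not overlap, leaving out 1 array cannot reverse a difference. The t-tests and the other variance model use the same difference of means. None of the 165 changed direction under any alternative that gave a value, and the filter on dim probes left 162 of them. The call was kept by 25 under the methods' t-test with unequal variances, 91 with equal variances, 38 within the shared slide, where the BM arm was 1 array, 133 without BM replicate 3 and 143 without BM replicate 2. With the mean over all probes of a gene, chosen for single genes after seeing the data, 156 kept it, and Tal1 and Tek did not. Of 80 list counts, 47 and 32 moved by over 1.5 times under the t-test with unequal and equal variances. Probes below background on all arrays of a group limit a fold to a bound.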
